A study of Mus musculus with 24 samples.

Results

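The dual specificity phosphatases described here are Dusp1, Dusp2, Dusp4, Dusp5, Dusp6, Dusp10, Dusp14 and Dusp16, 8 enzymes that switch off MAP kinases, followed at the RNA level through 4 states of mouse CD4+ T cells. Members were found by gene symbol in the array annotation, and every probe of a member was used. Of the 8 genes, 7 were measured, by 15 probes, among 10418 genes that gave a signal on at least 1 array, and Dusp5 was not analysed here. Where a gene had several probes (5 of the 7), its values below are those of its brightest probe, and the other probes are described beside it.

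RNA came from CD4+ T cells that were either wild-type (WT) or lacked BAF180, the protein of the Pbrm1 gene and the defining subunit of the PBAF form of the SWI/SNF chromatin remodeling enzyme. Each state was measured in both genotypes on 3 arrays each, called replicates A, B and C, so that 24 arrays were used. Resting naïve cells were CD4+CD62L+ cells, stated to be 95% pure, from spleens and lymph nodes of mice aged 4 to 6 weeks. Stimulated naïve cells had been kept for 24 h on coated plates, with antibodies to CD3 (1 µg/ml) and to CD28 (2 µg/ml). Resting Th2 cells had been grown from naïve cells on the same plates with IL-4 at 10 ng/ml and anti-IFN-gamma at 10 µg/ml, with IL-2 at 100 U/ml from 24 h on. Stimulated Th2 cells were such cultures after 1.5 h in PMA (50 ng/ml) plus ionomycin (500 ng/ml). The 2 stimulations thus differed in agent and in time and are not compared with each other. The Pbrm1 deletion was a conditional one, made in T cells by a Cre recombinase driven from CD4 control sequences, which act late in the thymus, and whether the WT mice carried Cre is not given in the sources used here. The labels call the mice Balb/c whereas the methods describe a mixed background, and although the study describes the arrays as derived from mice taken in pairs of the 2 genotypes, nothing ties an array to a given mouse, so that the p-values measure the spread between these samples.

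MAP kinases are switched on by phosphorylation of a threonine and a tyrosine in their activation loop, and dual specificity phosphatases remove both phosphates. Dusp1, Dusp2, Dusp4 and Dusp5 are inducible enzymes of the nucleus, Dusp6 is a cytoplasmic enzyme that prefers ERK, Dusp10 and Dusp16 prefer JNK and p38, and Dusp14 is a small atypical member without the MAP kinase-binding domain. Several of them are themselves products of ERK signaling, so that they form feedback loops, and in T cells the antigen receptor acts through the same kinases. PMA activates protein kinase C, and through it Ras and ERK, while ionomycin raises intracellular calcium.

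Promoter sequences were available from RefSeq (GRCm38.p6) for 6 of the 7 measured members. The 250 bases before the start of Dusp1, Dusp2 and Dusp10 are shown because these 3 genes shared a higher level in resting naïve cells than in resting Th2 cells, and those of Dusp6 because it did not share that pattern. Each is written 5′ to 3′ on the strand of its gene. The Dusp1 sequence lies at chr17:26508473-26508722 on the minus strand, that of Dusp2 at chr2:127335909-127336158, that of Dusp10 at chr1:184034131-184034380 and that of Dusp6 at chr10:99262981-99263230, all 3 on the plus strand. Capitals mark a cyclic AMP response element (TGACGTCA) or an E box (CACGTG):

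Dusp1: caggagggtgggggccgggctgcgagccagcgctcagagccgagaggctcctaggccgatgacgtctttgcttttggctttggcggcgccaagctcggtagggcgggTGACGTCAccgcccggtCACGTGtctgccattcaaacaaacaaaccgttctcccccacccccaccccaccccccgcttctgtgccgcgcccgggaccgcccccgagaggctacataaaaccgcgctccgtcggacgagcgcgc

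Dusp2: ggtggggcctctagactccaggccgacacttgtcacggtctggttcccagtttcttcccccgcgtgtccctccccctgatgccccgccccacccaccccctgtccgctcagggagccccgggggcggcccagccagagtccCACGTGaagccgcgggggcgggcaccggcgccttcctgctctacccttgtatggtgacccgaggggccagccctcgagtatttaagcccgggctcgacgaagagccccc

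Dusp10: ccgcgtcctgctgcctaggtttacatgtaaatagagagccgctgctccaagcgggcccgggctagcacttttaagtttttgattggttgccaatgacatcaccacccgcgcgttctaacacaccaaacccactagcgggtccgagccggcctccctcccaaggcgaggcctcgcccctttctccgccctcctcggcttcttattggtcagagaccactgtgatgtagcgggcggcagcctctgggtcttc

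Dusp6: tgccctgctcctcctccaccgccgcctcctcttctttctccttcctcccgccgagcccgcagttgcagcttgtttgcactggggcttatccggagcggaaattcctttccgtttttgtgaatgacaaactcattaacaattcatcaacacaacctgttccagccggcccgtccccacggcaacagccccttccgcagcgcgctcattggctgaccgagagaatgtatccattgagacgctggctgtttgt

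In the Dusp1 window the cyclic AMP response element began 143 bases before the start and the E box 126 bases before it. An E box also stood in the Dusp2 window, 109 bases before the start. Both strands of all 32851 promoters of this length were searched, and 1.55% held the response element and 6.02% the E box. The half-site TGACG, which lies inside the response element and was left in lower case elsewhere, was found in 17.8% of promoters, among them those of Dusp1 and Dusp16. The AP-1 element TGACTCA (4.46% of promoters), the TATA box TATAAA (12.4%) and the ETS core CCGGAAGT (2.88%) were found in none of the 6 windows. In the windows of Dusp10, Dusp6 and Dusp14 none of the 6 motifs was found. The shown windows were rich in G and C, with 68.4% for Dusp1, 70.4% for Dusp2, 59.6% for Dusp10 and 56.4% for Dusp6, against a median of 52.4% over all promoters.

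The arrays were checked before the members were compared. Between 8047 and 10689 probes were detected per array, and precision is limited by having 3 arrays in a group. Pbrm1 RNA was lower in the BAF180-deficient arrays of all 4 states without overlap, with log2 differences between -1.86 and -1.01. The difference passed an adjusted p of 0.05 in 3 of the states and not in resting naïve cells (limma, adjusted p = 0.121). In all 4 states it met the criteria used below for genotype differences. The 5 listed genes of CD4 T cells were detected in every group, with a summed level between 3689.5 and 10018 normalized intensity units. Cd4 itself was dim, with group means between 4.91 and 5.65 in log2 intensity. Cd8b1, a gene of CD8 T cells, was detected on every array, with group means between 7.00 and 8.57. Resting naïve arrays also carried RNA of other cells. Of 7 myeloid marker genes 6 were measured, and all 6 were detected on each of the 6 resting naïve arrays, while Lyz2, Cd14, Fcgr3 and S100a9 were detected on none of the other 18, Csf1r on 15 and S100a8 on 2 of them. The summed myeloid level was between 1037.7 and 5398.8 on the resting naïve arrays and between 113.63 and 167.81 on the others. B cell markers summed to between 466.43 and 1185.1 on the resting naïve arrays and to between 118.4 and 569.33 elsewhere. Cd8b1 lay between 284.48 and 500.59 on the resting naïve arrays and between 86.963 and 356.55 elsewhere. Markers of regulatory T cells, Foxp3 among them, summed to between 963.98 and 1825.7 and, elsewhere, to between 549.43 and 1273.1. The resting naïve C arrays of both genotypes stood apart from A and B in 4 of the 7 members. They correlated with the A and B arrays of their group at between 0.949 and 0.970 across probes, against 0.972 to 0.978 for A with B, and they had the highest myeloid and B cell sums of their groups. The C arrays of both Th2 states also had the highest B cell sums of their groups, and Cd8b1 was highest on the C array of every group. Results that rest on the resting naïve C arrays are given below with and without them.

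**Figure D1:**
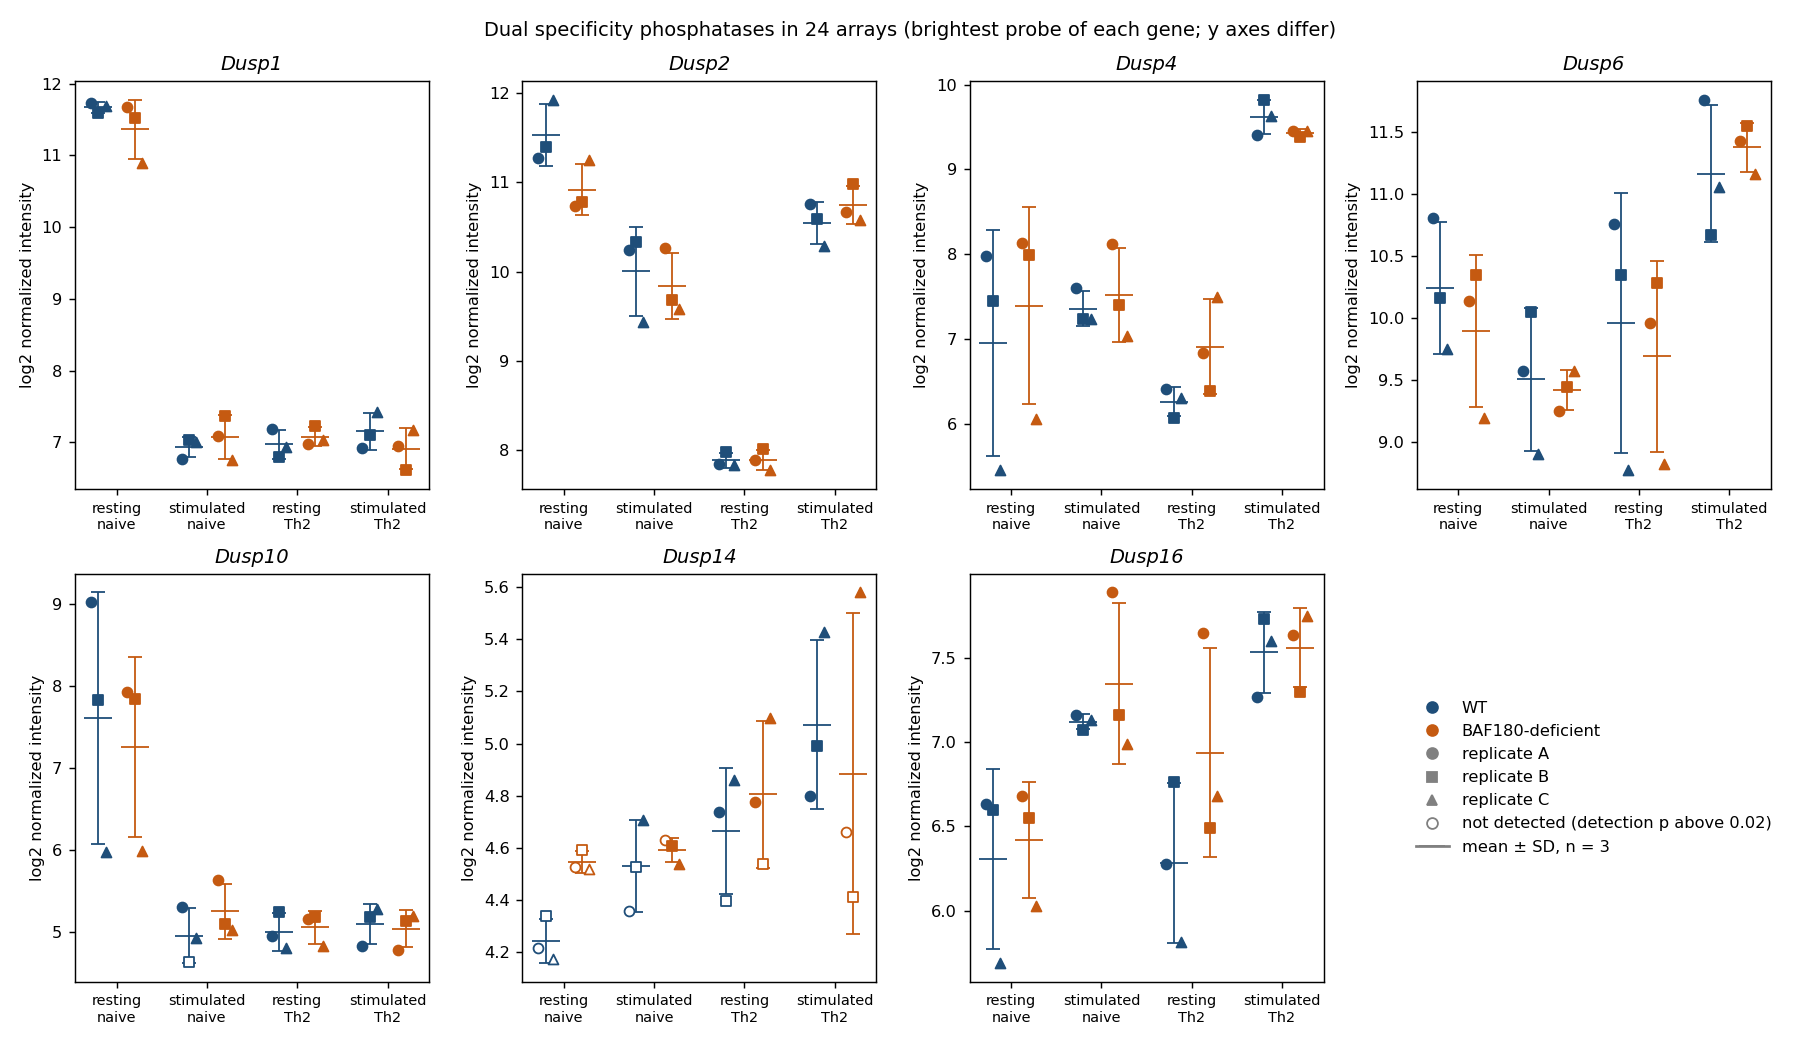
Normalized log2 intensity (y axes, which differ between panels) of the 7 measured phosphatases in the 4 cell states, with WT arrays in blue and BAF180-deficient arrays in orange. Each point is 1 array, its shape gives the replicate letter, open points were not detected, and bars are the mean ± SD of 3 arrays. Dusp1 is high on the resting naïve arrays, between 10.89 and 11.74, and at most 7.43 on the rest, while Dusp4 reaches 9.39 to 9.82 on the stimulated Th2 arrays.

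Between the cell states 3 patterns stood out. When Th2 cells were stimulated Dusp2 and Dusp4 rose in both genotypes, with Dusp16 the third gene called in WT and Dusp6 the third in BAF180-deficient cells. Stimulation of naïve cells was accompanied by less Dusp1, Dusp2 and Dusp10 and more Dusp16 in both genotypes. Resting Th2 cells also had less Dusp1, Dusp2 and Dusp10 than resting naïve cells. After naïve stimulation the Dusp16 call was lost under several alternatives, and the Dusp2 call with arrays scaled to equal medians, as described below. A change between states was called at an adjusted p below 0.05 (limma, Benjamini-Hochberg over all 14246 probes tested). After Th2 stimulation 3 of 7 members were called higher and 0 lower in each genotype, beside 13.0% of all probes higher and 14.3% lower in WT cells and 12.0% and 13.8% in BAF180-deficient cells. After naïve stimulation 1 member was called higher and 3 lower in each genotype, beside 23.6% of probes higher and 20.0% lower in WT and 22.3% and 19.3% in BAF180-deficient cells. Between resting Th2 and resting naïve cells 0 members were called higher and 3 lower in each genotype, where 18.4% of probes were higher and 16% lower in WT and 18.8% and 15.9% in BAF180-deficient cells. The median difference of the 7 members after Th2 stimulation was 1.20 in WT and 0.62 in BAF180-deficient cells on the log2 scale, while the median of all probes was -0.0018 and -0.0042. No member's response was called different between the genotypes. These members were picked with results of the same arrays known, so the counts describe them and are no independent evidence. The last 2 comparisons share the resting naïve arrays. No array held naïve cells kept in culture without antibodies to CD3 and CD28. In these comparisons stimulation or differentiation, culture and time since isolation therefore cannot be told apart.

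**Figure D2:**
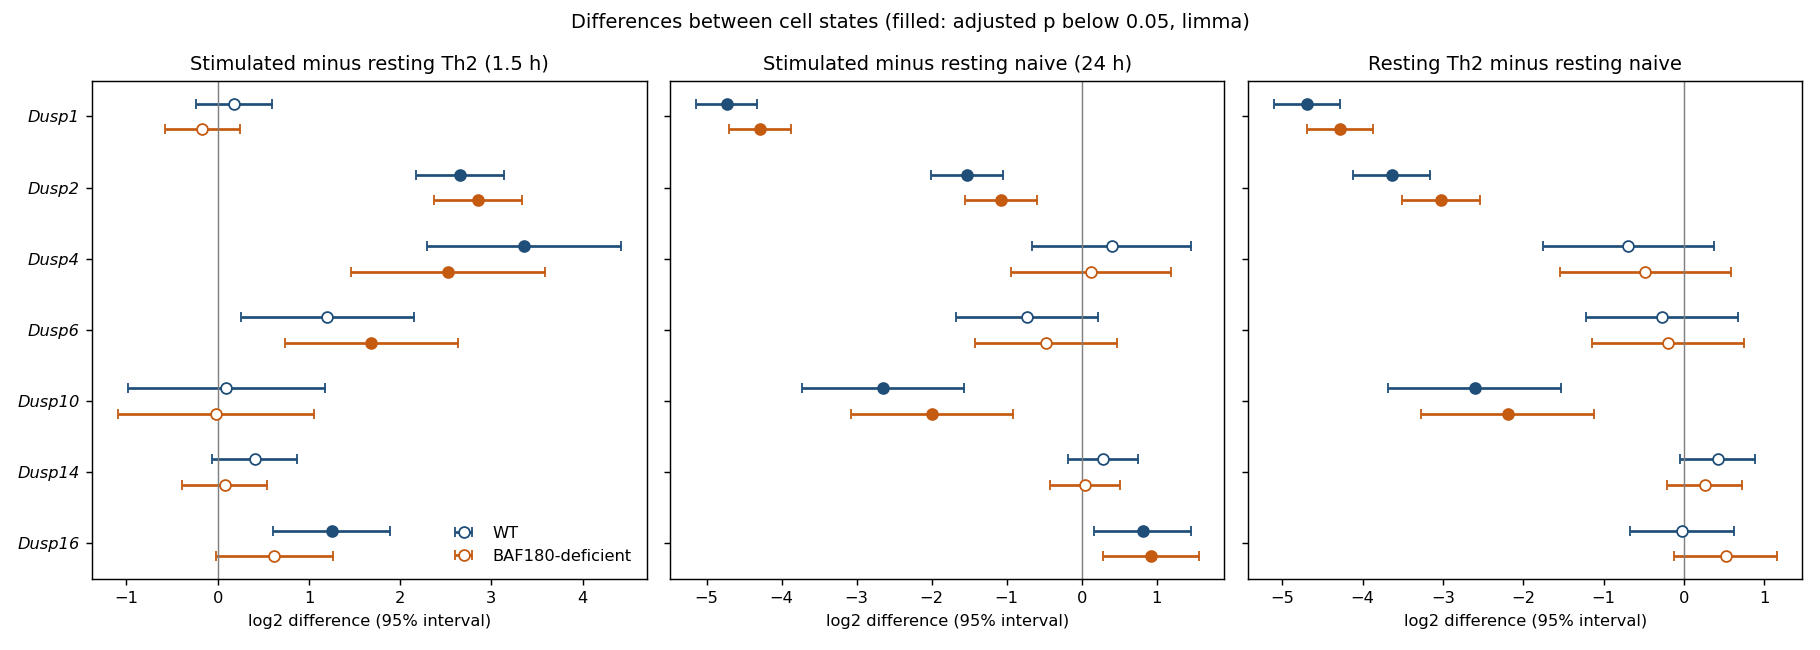
Differences in log2 intensity between cell states for the 7 phosphatases, with 95% intervals from limma, WT in blue and BAF180-deficient in orange, filled where the adjusted p was below 0.05. After Th2 stimulation Dusp2 and Dusp4 lie between 2.53 and 3.36, and in both comparisons with resting naïve cells Dusp1 lies between -4.73 and -4.28.

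Dusp1, a nuclear phosphatase that acts on p38 and JNK as well as ERK, was high in resting naïve cells and low in the other 3 states. On the WT resting naïve arrays its log2 intensity was 11.74, 11.59 and 11.69, and on the BAF180-deficient ones it was 11.67, 11.52 and 10.89. All 18 other arrays lay between 6.61 and 7.43, so that no array of another state came near the lowest resting naïve one. After 24 h on anti-CD3 and anti-CD28 WT cells measured 6.77, 7.03 and 7.00 and BAF180-deficient cells 7.09, 7.37 and 6.76. Dusp1 thus fell by 4.73 in WT (SE 0.20, adjusted p = 2.25e-13) and by 4.29 in BAF180-deficient cells (adjusted p = 1.11e-12), to 0.0376 and 0.0512 of the resting intensity. Resting Th2 cells were lower than resting naïve ones by nearly as much, with a difference of -4.70 in WT (adjusted p = 2.83e-13) and -4.28 in BAF180-deficient cells (adjusted p = 1.28e-12). Resting and stimulated Th2 cells overlapped, at 7.19, 6.79 and 6.94 against 6.92, 7.11 and 7.43 in WT and 6.98, 7.23 and 7.04 against 6.96, 6.61 and 7.17 in BAF180-deficient cells. The stimulated minus resting difference was not called, at 0.18 in WT (95% interval -0.23 to 0.59) and -0.17 in BAF180-deficient cells (95% interval -0.58 to 0.24). In the order of mean levels the resting naïve state came first and did not overlap any other, and the other 3 states overlapped their neighbours in both genotypes.

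The myeloid markers described above were high on the same 6 arrays as Dusp1. The 3 genes closest to Dusp1 over the 24 arrays, named below, included the macrophage mannose receptor gene Mrc1 (correlation 0.992). Levels within those 6 arrays are given as a description. The myeloid sum was highest on the WT C array, at 5398.8, where Dusp1 measured 11.69, and lowest on the WT B array, at 1037.7, where Dusp1 measured 11.59. On the BAF180-deficient C array, with the lowest Dusp1 of the 6, the sum was 2849.2. The markers in the sum varied unequally over the WT resting naïve arrays. Their SD in log2 was 1.84 for S100a8, 1.49 for Lyz2 and 1.26 for S100a9, against 0.48 for Csf1r, 0.31 for Cd14 and 0.13 for Fcgr3. The sum therefore does not stand for each marker. The part of myeloid, B cell, CD8 T cell or regulatory T cell RNA in the Dusp1, Dusp2 and Dusp10 levels was not tested. In such bulk samples fewer cells of a type and less RNA per cell cannot be told apart. Of 15 measured ERK-responsive early genes, 2 rose, 5 fell and 8 were not called on stimulation of WT naïve cells. Among them the transcription factor gene Fos fell by 5.745 and its relative Fosb fell by 4.68 on the log2 scale (adjusted p = 5.34e-11 and 1.1e-09).

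**Figure D3:**
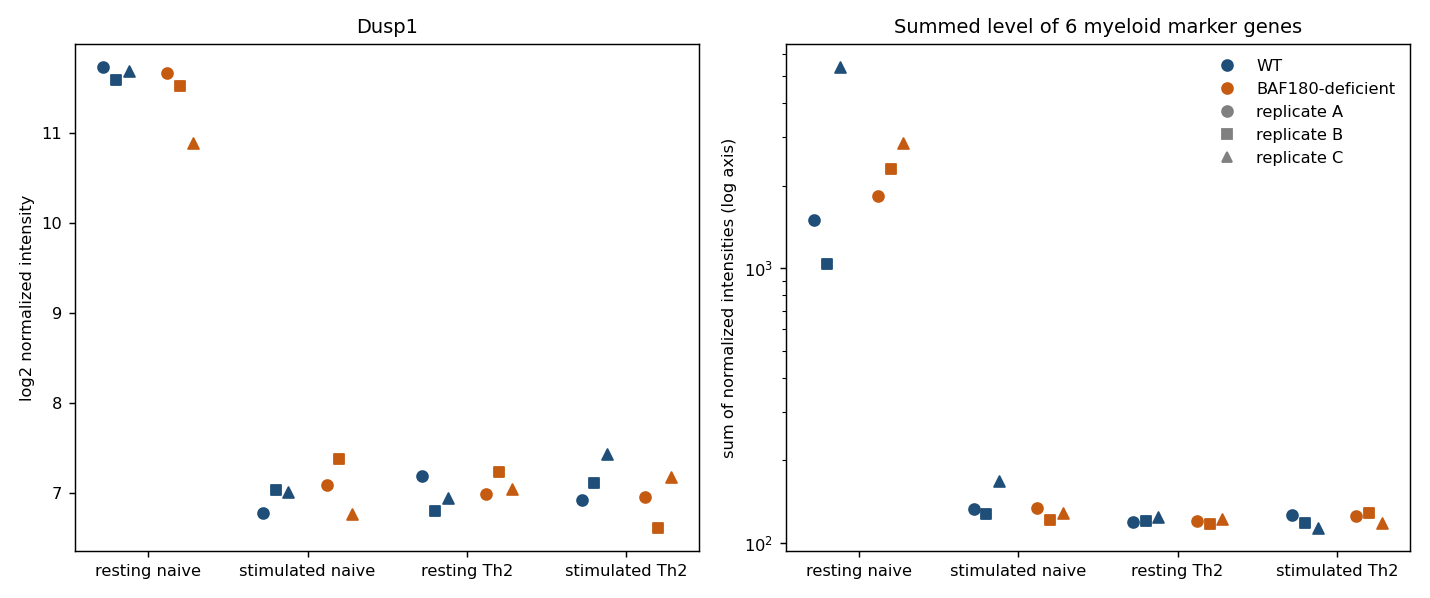
Dusp1 in log2 normalized intensity (left) and the summed normalized intensity of 6 myeloid marker genes on a log axis (right) for each of the 24 arrays, by cell state, with genotype by colour and replicate by shape. Both are high on the 6 resting naïve arrays, where the myeloid sums span 1037.7 to 5398.8 in intensity units and Dusp1 spans 10.89 to 11.74 in log2.

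Dusp2, a nuclear phosphatase of hematopoietic cells that acts on ERK, was lowest in resting Th2 cells. WT resting Th2 cells measured 7.85, 7.99 and 7.84, and after 1.5 h of PMA and ionomycin they measured 10.75, 10.59 and 10.29. BAF180-deficient cells moved from 7.89, 8.01 and 7.78 to 10.67, 10.98 and 10.58. The groups did not overlap in either genotype. Dusp2 rose by 2.65 in WT (6.29-fold, SE 0.23, adjusted p = 2.81e-08) and by 2.85 in BAF180-deficient cells (7.22-fold, adjusted p = 1.34e-08). A second probe of Dusp2 gave 2.96 in WT (adjusted p = 1.76e-07) and 3.28 in BAF180-deficient cells (adjusted p = 6.3e-08).

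On its brightest probe Dusp2 was highest in resting naïve cells, with 11.27, 11.39 and 11.92 in WT and 10.73, 10.77 and 11.25 in BAF180-deficient cells. Stimulated naïve cells measured 10.24, 10.33 and 9.43 in WT and 10.27, 9.68 and 9.58 in BAF180-deficient cells. On that probe every stimulated naïve array lay below every resting naïve array. The fall was 1.53 in WT (SE 0.23, adjusted p = 1.67e-05) and 1.07 in BAF180-deficient cells (adjusted p = 0.000708). On the second probe the difference was -1.31 in WT (adjusted p = 0.00106), again without overlap, and -0.83 in BAF180-deficient cells (adjusted p = 0.0278), where the ranges overlapped. With the arrays scaled to equal medians in place of quantile normalization the difference was -0.34 in WT (adjusted p = 0.516) and 0.085 in BAF180-deficient cells (adjusted p = 0.892), so that this call and, in BAF180-deficient cells, its direction rest on the normalization. Under that scaling the median difference of all probes in this comparison was 0.244 in WT and 0.270 in BAF180-deficient cells, against 0.013 and 0.025 under quantile normalization. Resting Th2 minus resting naïve cells gave -3.64 in WT (adjusted p = 1.58e-10) and -3.03 in BAF180-deficient cells (adjusted p = 3.01e-09), and it was called under every alternative that was run. In the order of WT levels, resting naïve cells came first at 11.53 ± 0.35 (SD, n = 3), then stimulated Th2 cells at 10.54 ± 0.24 and stimulated naïve cells at 10.00 ± 0.50, which overlapped each other, and resting Th2 cells last at 7.89 ± 0.08. The BAF180-deficient order was the same, with resting naïve and stimulated Th2 cells as the overlapping neighbours. The second probe gave another order, with a mean of 9.48 in stimulated Th2 and 9.45 in resting naïve WT cells, and with stimulated Th2 cells (9.66) above resting naïve cells in the BAF180-deficient arrays as well.

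Dusp4, an inducible nuclear phosphatase of ERK and JNK, was highest in stimulated Th2 cells. Before stimulation WT Th2 cells measured 6.41, 6.07 and 6.30 and afterwards 9.41, 9.82 and 9.63. In BAF180-deficient Th2 cells the levels were 6.84, 6.39 and 7.50 before and 9.46, 9.39 and 9.46 after. The stimulated arrays were tightly grouped and stood above all arrays of the other 3 states. Dusp4 rose by 3.36 in WT (10.3-fold, SE 0.51, adjusted p = 3.77e-05) and by 2.53 in BAF180-deficient cells (5.76-fold, adjusted p = 0.000828). Both other probes of Dusp4 also rose. One gave 2.67 in WT and 2.14 in BAF180-deficient cells (adjusted p = 1.33e-07 and 2.99e-06). The third was not detected on any resting Th2 array and was at least 1.87-fold higher in stimulated WT cells (adjusted p = 0.00127) and at least 1.78-fold higher in stimulated BAF180-deficient cells (adjusted p = 0.00508). These bounds set the stimulated mean against the lowest signal among detected probes of the resting arrays, or the probe's own signal where that was higher.

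In naïve cells Dusp4 varied with the replicate. Resting WT cells measured 7.98, 7.44 and 5.45 for replicates A, B and C, and BAF180-deficient cells measured 8.14, 7.99 and 6.05, so that C lay far below A and B in both genotypes. The SDs were 1.3338 in WT and 1.1643 in BAF180-deficient resting naïve cells, against 0.041 to 0.558 in the other groups. The model shares 1 variance among all groups, so its tests understate the spread of the resting naïve arrays. Stimulated naïve cells were closer together, at 7.60, 7.23 and 7.24 in WT and 8.13, 7.40 and 7.03 in BAF180-deficient cells. The difference after stimulation was 0.40 in WT (adjusted p = 0.572) and 0.13 in BAF180-deficient cells (adjusted p = 0.875) and was not called. Without both resting naïve C arrays, a choice made after the values were seen, its sign turned without a call, to -0.35 in WT (adjusted p = 0.349) and -0.54 in BAF180-deficient cells (adjusted p = 0.144). A second probe was called in WT at 0.84 (adjusted p = 0.0117) and not in BAF180-deficient cells (0.33, adjusted p = 0.332), and the third gave -0.26 and -0.16 without a call. Resting Th2 cells differed from resting naïve cells by -0.70 in WT (adjusted p = 0.317) and by -0.48 in BAF180-deficient cells (adjusted p = 0.497). Without both resting naïve C arrays these differences were -1.45 (adjusted p = 0.000697) and -1.16 (adjusted p = 0.00435) and were called. Leaving out the WT resting naïve C array alone likewise gave a called -1.45 (adjusted p = 0.015). On the second probe, with all arrays, they were 0.03 (adjusted p = 0.938) and -0.03 (adjusted p = 0.953).

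Dusp6, the cytoplasmic phosphatase of ERK and a common target of ERK signaling, was expressed in every state and was highest on average in stimulated Th2 cells. In WT Th2 cells it measured 10.75, 10.35 and 8.77 at rest and 11.76, 10.67 and 11.05 after stimulation, and these ranges overlapped. BAF180-deficient Th2 cells measured 9.96, 10.28 and 8.83 at rest and 11.42, 11.54 and 11.16 after stimulation, with no overlap. Both resting C arrays were the lowest of their groups. The WT difference of 1.20 (SE 0.45, adjusted p = 0.055) was not called, whereas the BAF180-deficient rise of 1.68 was (3.21-fold, adjusted p = 0.0084). The difference between those responses was 0.48 (SE 0.64, adjusted p = 1), so a genotype effect on the Dusp6 response was not shown. Both other probes of Dusp6 were called in both genotypes. The second gave 2.33 in WT (adjusted p = 4.22e-05) and 2.07 in BAF180-deficient cells (adjusted p = 0.000183). The third gave 1.32 (adjusted p = 0.000195) and 1.50 (adjusted p = 6.15e-05).

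The call on the brightest Dusp6 probe depended on single arrays and on the model. It was made in WT with the replicate letter as a block (adjusted p = 0.0104 with the replicate block, for the same difference of 1.20), without WT resting Th2 A (adjusted p = 0.0192) and without WT stimulated Th2 B (1.45, adjusted p = 0.0445). With the mean of the 3 probes in place of the brightest, WT Dusp6 was called at 1.62 (adjusted p = 0.000243). The call in BAF180-deficient cells was lost without resting Th2 C (1.25, adjusted p = 0.0609). With equalized array medians the WT difference was called at 1.59 (adjusted p = 0.0305) and the BAF180-deficient one was not at 1.20 (adjusted p = 0.0843). Dusp6 in naïve cells was not called in any comparison. Resting naïve cells measured 10.80, 10.16 and 9.75 in WT and 10.13, 10.35 and 9.20 in BAF180-deficient cells. Stimulated naïve cells overlapped them, at 9.57, 10.04 and 8.90 in WT and 9.25, 9.44 and 9.57 in BAF180-deficient cells. The differences were -0.73 (95% interval -1.68 to 0.22) and -0.47 (95% interval -1.42 to 0.47).

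**Figure D4:**
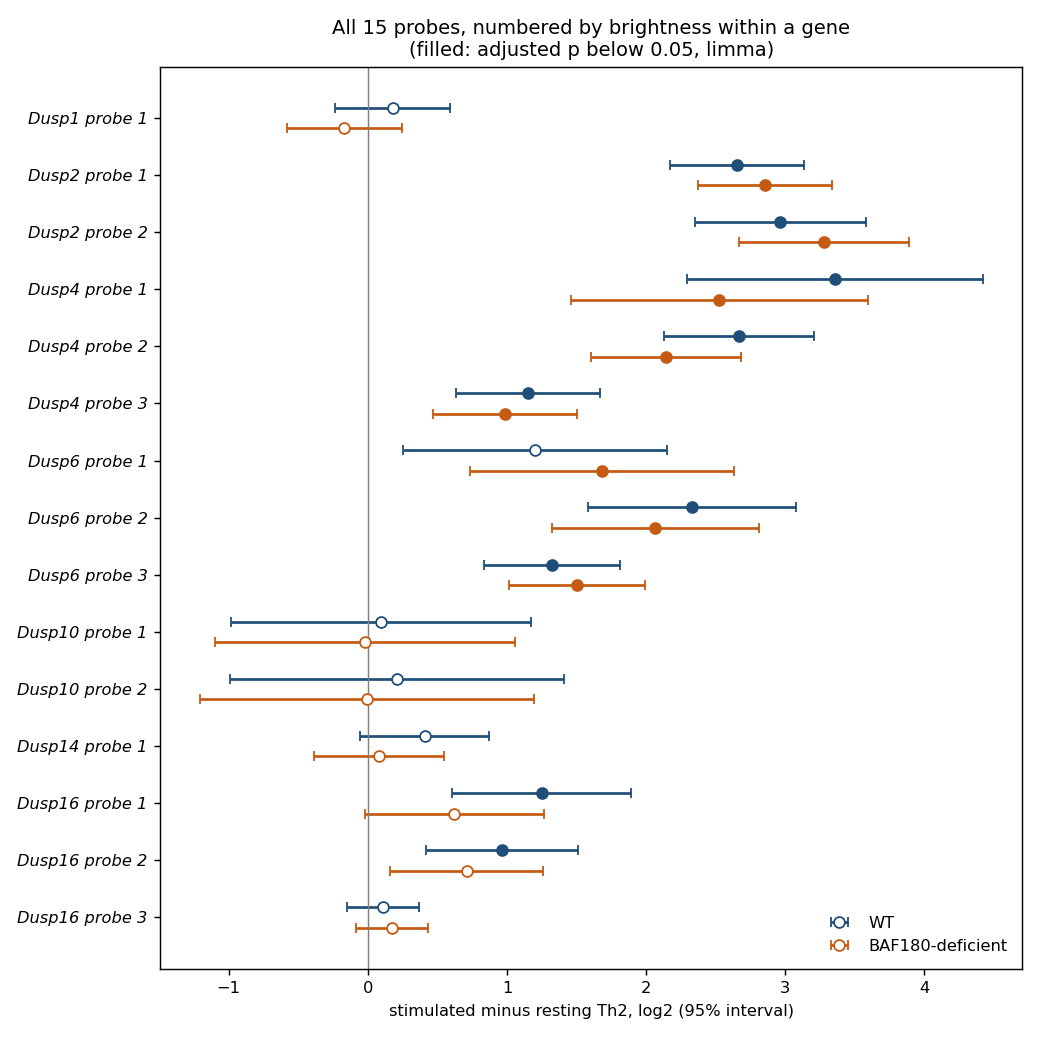
Stimulated minus resting Th2 cells in log2 intensity with 95% intervals for each of the 15 probes, numbered by brightness within a gene, WT in blue and BAF180-deficient in orange, filled where the adjusted p was below 0.05. All probes of Dusp2 and Dusp4 lie above 0.98 and are filled, probes of Dusp6 lie between 1.20 and 2.33 with 1 of the 6 values open, and the intervals of Dusp1, Dusp10 and Dusp14 include 0.

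Dusp10, a phosphatase of JNK and p38, was raised in resting naïve cells only. WT resting naïve arrays measured 9.02, 7.83 and 5.98 and BAF180-deficient ones 7.93, 7.84 and 5.99, so that replicate C was again the lowest. Stimulated naïve cells measured 5.31, 4.64 and 4.93 in WT and 5.64, 5.10 and 5.03 in BAF180-deficient cells, below every resting array of their genotype. Dusp10 fell by 2.65 in WT (SE 0.52, adjusted p = 0.000281) and by 2.00 in BAF180-deficient cells (adjusted p = 0.00361). Resting Th2 cells, at 4.96, 5.25 and 4.80 in WT and 5.16, 5.19 and 4.83 in BAF180-deficient cells, were lower than resting naïve cells by a like amount. That difference was -2.61 in WT (adjusted p = 0.000541) and -2.20 in BAF180-deficient cells (adjusted p = 0.00242). Without both resting naïve C arrays it was -3.42 and -2.83, and the difference after naïve stimulation was -3.47 and -2.63, all called. Stimulated Th2 cells measured 4.83, 5.19 and 5.28 in WT and 4.78, 5.14 and 5.20 in BAF180-deficient cells and overlapped the resting ones. The stimulated minus resting Th2 difference was 0.10 in WT (95% interval -0.98 to 1.17) and -0.02 in BAF180-deficient cells (95% interval -1.10 to 1.06). Both intervals use the variance shared by all 8 groups and are wider than the Th2 arrays alone imply. The SDs of the Th2 groups lay between 0.202 and 0.240, below those of the resting naïve groups. A second probe of Dusp10 was called lower in both comparisons with resting naïve cells and in both genotypes, with differences between -1.82 and -1.63. On that probe the WT resting naïve C array, at 4.57, lay among the WT stimulated naïve arrays (4.54, 4.75 and 4.66). It also lay among the WT resting Th2 arrays (4.74, 4.56 and 4.52). The BAF180-deficient C array, at 4.93, lay below the resting Th2 B array at 5.03. The levels outside resting naïve cells were near the limit of detection. The brightest probe was not detected on 1 of the 24 arrays, a WT stimulated naïve one, and the second probe was detected on only 14 of the 24.

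Dusp16, also a phosphatase of JNK and p38, had its highest mean in stimulated Th2 cells in both genotypes. WT Th2 cells measured 6.27, 6.76 and 5.82 at rest and 7.27, 7.73 and 7.60 after stimulation, without overlap, a rise of 1.25 (2.38-fold, SE 0.31, adjusted p = 0.00407). BAF180-deficient Th2 cells measured 7.65, 6.49 and 6.68 at rest and 7.63, 7.30 and 7.75 after stimulation, where the resting A array reached the stimulated ones. Their difference of 0.62 was not called (adjusted p = 0.159), and without that array it was called at 0.98 (adjusted p = 0.0283). A test of the difference between the genotypes in this response gave -0.63 (SE 0.44, adjusted p = 1). The second Dusp16 probe gave 0.96 in WT (adjusted p = 0.00819) and 0.71 in BAF180-deficient cells (adjusted p = 0.052), and the third was not detected in Th2 cells.

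Among naïve cells Dusp16 measured 6.64, 6.59 and 5.69 at rest and 7.16, 7.07 and 7.13 after stimulation in WT. The BAF180-deficient values were 6.68, 6.55 and 6.03 at rest and 7.89, 7.16 and 6.99 after stimulation. The stimulated arrays lay above the resting ones in both genotypes, and Dusp16 rose by 0.81 in WT (adjusted p = 0.0381) and by 0.93 in BAF180-deficient cells (adjusted p = 0.0203). The WT call was lost without any 1 of the stimulated naïve arrays (adjusted p between 0.0685 and 0.0823), without the resting C array (0.51, adjusted p = 0.214) and with no detection filter (adjusted p = 0.0815). The BAF180-deficient call was lost without the resting C array (0.73, adjusted p = 0.0979) or the stimulated A array (0.65, adjusted p = 0.117). Without both resting naïve C arrays neither genotype was called (adjusted p = 0.202 and 0.0675). The second probe of Dusp16 rose by 0.85 in WT and by 0.80 in BAF180-deficient cells (adjusted p = 0.012 and 0.0176). Resting Th2 and resting naïve cells differed by -0.02 in WT (adjusted p = 0.967) and by 0.52 in BAF180-deficient cells (adjusted p = 0.21). The latter was called with Z-score normalization (0.72, adjusted p = 0.015) and with equalized array medians (1.59, adjusted p = 0.00219).

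Dusp14, the small atypical phosphatase, was near the limit of detection and was detected on 11 of 24 arrays, none of them from resting naïve cells. Its values in stimulated Th2 cells were 4.80, 4.99 and 5.43 in WT and 4.66, 4.41 and 5.58 in BAF180-deficient cells. Resting Th2 cells measured 4.74, 4.40 and 4.86 in WT and 4.78, 4.54 and 5.10 in BAF180-deficient cells, and these ranges overlapped. Resting naïve arrays, all not detected, read 4.22, 4.34 and 4.18 in WT and 4.53, 4.59 and 4.52 in BAF180-deficient cells, and stimulated naïve arrays read 4.36, 4.53 and 4.71 in WT and 4.63, 4.61 and 4.54 in BAF180-deficient cells. No comparison of Dusp14 was called. The stimulated minus resting Th2 difference was 0.41 in WT (95% interval -0.06 to 0.87) and 0.08 in BAF180-deficient cells (95% interval -0.39 to 0.55).

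The comparison of the genotypes asked whether loss of BAF180 changes these genes in a given state. No member met the criteria of the methods, as computed here, in any of the 4 states. They ask for a Z-ratio of more than 1.5 in size, p under 0.05, FDR under 0.3 and a signal above 0. The Z-ratio sets a probe's difference against the SD that the differences of all probes have, and limma supplied p and FDR. The study applied the criteria to Z-score data with its own p and FDR and reported many more changed genes. A member not called here may therefore be among those the study counted. The criteria were met by 0.0842% of all probes in Th2 cells at rest and 0.0913% after stimulation, and by 0.681% in naïve cells at rest and 0.112% after stimulation. The 28 differences of the 7 members, BAF180-deficient minus WT, lay between -0.61 and 0.65 with standard errors of 0.20 to 0.52, and their adjusted p between 0.585 and 1. Their 95% intervals together reached from -1.43 to 1.71.

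The 2 genotype differences with an unadjusted p below 0.05 were those of Dusp2 in resting naïve and of Dusp16 in resting Th2 cells. Dusp2 measured 10.73, 10.77 and 11.25 in BAF180-deficient and 11.27, 11.39 and 11.92 in WT resting naïve cells, so the ranges did not overlap but nearly met. The difference was -0.61 (95% interval -1.09 to -0.13, limma p = 0.0149, adjusted p = 0.585), and the two-sided exact permutation test gave p = 0.1, the smallest that 3 arrays against 3 allow. Taken within letters, replicate A gave -0.54, B gave -0.62 and C gave -0.68, and with the letter as a block the adjusted p was 0.488. On the other Dusp2 probe it was -0.45. In the remaining states the Dusp2 difference was 0.00 in resting Th2, 0.20 in stimulated Th2 and -0.16 in stimulated naïve cells. Dusp16 measured 7.65, 6.49 and 6.68 in BAF180-deficient and 6.27, 6.76 and 5.82 in WT resting Th2 cells, with overlap, and its difference was 0.65 (95% interval 0.01 to 1.30, limma p = 0.0471, adjusted p = 1, exact permutation p = 0.3). Dusp4 differed by 0.65 in resting Th2 cells (95% interval -0.42 to 1.71, adjusted p = 1). Dusp1 differed by between -0.31 and 0.14 over the 4 states, and Dusp6 by between -0.34 and 0.21.

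Among the brightest probes Dusp14 gave the other pair of ranges without overlap, in resting naïve cells, where neither genotype was detected and no fold is given. The second Dusp4 probe also gave ranges without overlap, in resting Th2 cells (0.38, limma adjusted p = 1, exact permutation p = 0.1). Dusp10 differed by -0.35 in resting naïve cells (95% interval -1.43 to 0.72), where the C arrays were 5.98 and 5.99 in the 2 genotypes while A and B spread from 7.83 to 9.02. That interval rests on 1 variance shared by all 8 groups. It is too narrow for these arrays, whose SDs were 1.5334 in WT and 1.0955 in BAF180-deficient cells. Without the WT resting naïve C array the Dusp10 difference was -1.17 and met the criteria (adjusted p = 0.276), as did 616 of all probes in place of 97. Without both C arrays it was -0.54 and did not meet them (adjusted p = 0.677). Its sign turned, without a call, when either the BAF180-deficient C array (0.28) or the WT A array (0.35) was left out. Where a gene had several probes, these gave different signs for the genotype difference in some states, such as -0.27 and 0.24 for Dusp6 in resting Th2 cells.

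**Figure D5:**
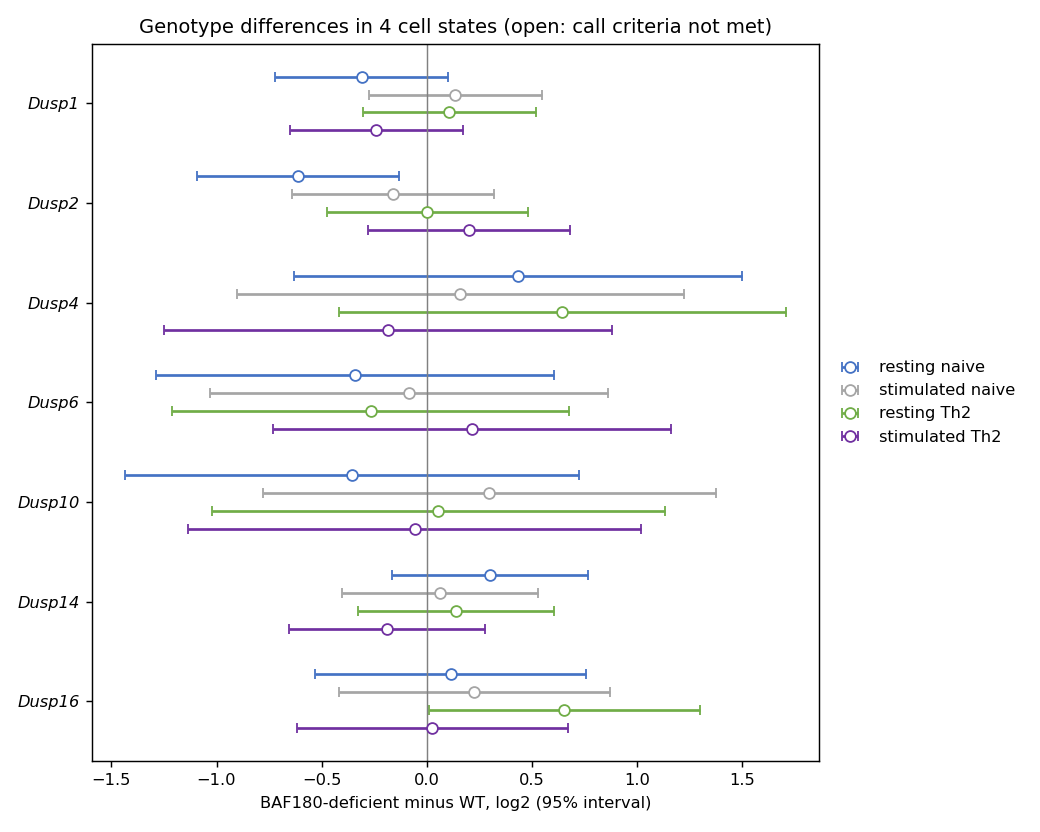
BAF180-deficient minus WT in log2 intensity with 95% intervals for the 7 phosphatases, coloured by cell state, with open points because no difference met the call criteria. The points lie between -0.61 and 0.65, and all but 2 of the 28 intervals include 0.

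Whether BAF180 changed a response was tested directly with interaction terms. None of the 21 interactions of the members was called, the lowest unadjusted limma p being 0.073 for Dusp2 in the comparison of resting Th2 with resting naïve cells (0.62, SE 0.33, adjusted p = 1). The estimates lay between -0.83 and 0.65 with standard errors of 0.28 to 0.73. Among all probes, 0% were called for the Th2 stimulation, 0.00702% for the naïve stimulation and 0.00702% for the cell type, and 257, 329 and 387 probes had an unadjusted p below 0.05.

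Other genes of the pathway were followed in 4 lists, called by the same rule. Of all probes 13.0% were called higher and 14.3% lower after WT Th2 stimulation, and 23.6% and 20.0% after WT naïve stimulation. The BAF180-deficient shares were 12.0% and 13.8% for Th2 and 22.3% and 19.3% for naïve stimulation. Shares for the comparison of the resting states are given above. Whether a list differed from these shares was not tested, so its counts only describe it. Of 16 genes listed as ERK-responsive early genes, 15 were measured, and 7 rose and 1 fell after stimulation of WT Th2 cells. The largest were Egr2 (5.21, adjusted p = 4.29e-09) and Egr1 (3.97, adjusted p = 1.63e-08), zinc finger transcription factors, and Phlda1 (3.79, adjusted p = 1.77e-06). In BAF180-deficient Th2 cells 7 rose and 0 fell. After stimulation of WT naïve cells 2 rose and 5 fell, led by Fos, Fosb and Zfp36, an RNA-destabilizing protein (-3.81, adjusted p = 4.49e-11), and 3 rose and 6 fell in BAF180-deficient cells. Resting Th2 cells had 1 of these genes higher and 7 lower than resting naïve cells in each genotype. The median difference of the list was 0.53 after Th2 stimulation and -0.27 after naïve stimulation in WT.

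Of 16 other dual specificity phosphatases listed, 9 were measured, and 0 rose and 2 fell after WT Th2 stimulation, Dusp19 by 0.67 and Dusp22 by 0.47 on the log2 scale (adjusted p = 0.018 and 0.0252). After naïve stimulation of WT cells 1 rose and 2 fell, with Dusp11, a phosphatase of RNA ends, at -1.70 (adjusted p = 5.92e-07), Dusp19 at 1.30 and Dusp28 at -0.78. In BAF180-deficient cells the counts were 0 and 3 after Th2 and 1 and 3 after naïve stimulation.

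Among the MAP kinases and the kinases above them, 20 of 23 were measured. Map2k3, which phosphorylates p38, rose by 2.50 after WT Th2 stimulation (adjusted p = 6.29e-08), while Map2k5, the kinase above ERK5, fell by 1.33 and Map3k1 by 1.06. In all 2 rose and 6 fell in WT and 2 and 5 in BAF180-deficient Th2 cells. After naïve stimulation 2 rose and 7 fell in WT, with Map3k1 at -1.48, Map3k8 at -1.12 and Mapk14, the gene of p38 alpha, at -1.10, and 1 rose and 6 fell in BAF180-deficient cells. Of 15 other inhibitors of Ras and ERK signaling 10 were measured. After WT Th2 stimulation 3 rose and 3 fell, led by Spred1, an inhibitor of Ras signaling (2.10, adjusted p = 2.96e-06), and by the adaptor Dok2 and the Ras GTPase-activating protein Rasal3 (-1.52 and -1.51). After naïve stimulation 2 rose and 3 fell, led by Dok2 at -2.01, Rasa1 at -1.46 and the Raf inhibitor Pebp1 at 1.40. In BAF180-deficient cells 3 rose and 2 fell after Th2 and 2 rose and 3 fell after naïve stimulation. Between the genotypes 0 genes of any of these 4 lists met the criteria in any state, and 0 of their interactions were called.

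The genes most like each phosphatase over the 24 arrays were sought among 10411 other genes, by Pearson correlation of log2 intensity. These values describe arrays that fall into 8 groups of 3 and carry no p. Dusp1 was closest to Slc40a1, an iron exporter, Vcam1, an adhesion molecule, and Mrc1, the macrophage mannose receptor, each at 0.992. The nearest to Dusp2 was Zfp36l1 (0.949), an RNA-binding relative of Zfp36, followed by Cd160 and Csrnp2 (both 0.940). For Dusp4 they were Zswim4 (0.952), the atypical MAP kinase gene Mapk6 (0.950) and the T cell adaptor Sh2d2a (0.935). Dusp10 was closest to Parp9 (0.960), Arap1 (0.951) and Ccrl2 (0.951). The others had weaker neighbours, Stt3a for Dusp6 (0.864), Wwc1 for Dusp14 (0.888) and the chemokine receptor gene Ccr8 for Dusp16 (0.862). Between members the highest value was that of Dusp1 and Dusp10 (0.883), which shared the high resting naïve state. Dusp4 and Dusp10 were unrelated over the 24 arrays (-0.01), but their deviations from their group means correlated at 0.873, with the low resting naïve C arrays in both.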

How the data were processed

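RNA levels were measured with 24 Illumina BeadChips (MouseRef-8 v2), 3 for each of 4 cell states in 2 genotypes. The authors deposited, for each of 25697 probes, the average bead intensity without normalization and a detection p-value, which rests on each array's negative control probes. The submitters' processing notes name GenomeStudio 1.6.0. Arrays were assigned to groups by their titles, and 0 columns of values were left unused.

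The neqc function of limma 3.58.1 (R 4.3.3) subtracted the background, estimated through the detection p-values, added an offset of 16, which understates changes of dim probes, and made the log2 intensities equal in quantiles. Probes stayed in (14246) if any array had a detection p no higher than 0.02. One limma model held a mean for each of the 8 groups, used every array and moderated the variances (16 residual degrees of freedom, 20.3 in total), with Benjamini-Hochberg adjustment over the probes that stayed in. Genotype differences were called by the 4 criteria of the methods, with p and FDR from limma in place of the study's own, and all others at an adjusted p below 0.05. Every probe meets the criterion of a signal above 0 after this background step and offset, so only the other criteria decided. Figures and tables were made in Python 3.11.15.

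The phosphatases, pathway lists and marker lists were chosen with earlier results of these data known. Named genes were the members, Pbrm1, at most 3 called genes of largest difference per pathway list in each stimulation of WT cells, and the 3 genes most correlated with each member, of which the first is named for members with correlations below 0.9. Alternatives were a Z-score normalization, no background correction, equalized array medians, no detection filter, only the arrays compared, the replicate letter as a block, the mean of a gene's probes, each array left out in turn and, for genotypes, an adjusted p below 0.05.

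The array RNA is described by the authors as derived from mice in 3 pairs of both genotypes, with no word on whether the letters mark these pairs. Deviations of the WT and BAF180-deficient arrays of a letter from their groups correlated at 0.301 for A, 0.136 for B and 0.516 for C over the 4 states (above 0.1 in 10 of 12 single-state values). What the arrays of a letter share is not known. The letters were therefore used as pairs only in the within-letter differences and the replicate block, and the main model treated the arrays as unpaired. At most 0.973% of the intensities of a replicate pair were equal, so no array was a copy of another.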

Additional observations from a re-analysis of the deposited data

How the results depend on the processing

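Of 686 differences of the members recomputed under the alternatives other than leaving out single arrays, 645 kept their direction and their side of the threshold, 7 were newly called, 5 lost their call, 28 changed sign without a call in either setting, and 1 called difference changed sign. That one was Dusp2 in BAF180-deficient naïve cells after stimulation, which was 0.085 with equalized array medians, a scaling under which 17 of the sign changes without a call also occurred. Of 672 differences with 1 array left out, 593 kept direction and side, 5 were newly called, 7 lost their call and 67 changed sign without a call. The number of members that met the criteria between genotypes in resting naïve cells ranged from 0 to 1 with 1 array left out, the 1 being Dusp10 without WT resting naïve C. Counts of called members in both directions together otherwise stayed within 1.5 times their value. By direction, the 1 member higher after naïve stimulation (Dusp16) became 0 under 6 alternatives in WT and 3 in BAF180-deficient cells, and the 0 higher in BAF180-deficient resting Th2 than resting naïve cells became 1 (Dusp16) under 2, the Z-score normalization and equalized medians. With the replicate block 4 rather than 3 members were called after stimulation of WT Th2 cells, Dusp6 being added, and it changed no other call of a member. Under equalized medians the median difference of all probes was 0.230 between genotypes in resting Th2 cells, and 0.321 (WT) and 0.550 (BAF180-deficient) between resting Th2 and resting naïve cells, against 0.00056, 0.030 and 0.035 under quantile normalization. The cause of these changes was not tested. Signal near background limits what can be said of Dusp14 in every state and of Dusp10 outside resting naïve cells.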
